A study of Mus musculus with 12 samples.

Results

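The promoter peaks of protein-coding genes were described in the open chromatin of C2C12 myotubes, muscle fibres grown in culture from a mouse (C3H) myoblast line. ATAC-seq, in which the Tn5 transposase inserts adapters where DNA is accessible, was done on 3 control samples and on 3 samples treated for 24 hours with conditioned medium of Colon-26 (C26), a carcinoma line from mouse colon, as a culture model of muscle breakdown. All cells had been differentiated in 2% horse serum for 4 to 7 days. The titles call them myotubes and the cell type label says myoblast. Cells were seeded in triplicate, and no label says that the 3 libraries of a group were separate cultures, so the p-values reflect the spread among samples whose differences may be technical alone. RNA from muscle of C57BL/6 mice, 3 given PBS and 3 given a subcutaneous injection of 500000 LLC (Lewis lung carcinoma) cells with collection on day 22, served as a second readout of the same genes in another system. The muscle is not named.

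Members were the peaks that the deposited annotation places at a promoter, from 1000 bp before to 100 bp after a start site, of a protein-coding gene, with a mean of at least 5 over the 6 libraries and outside the mitochondrial genome. The rule gave 7326 of 38244 peaks, 19.6% of the 37356 peaks tested, at 7102 gene symbols. Before the limit on the mean there were 7386, and 60 were left out. Just inside it were the peaks of Apol9b at 5.09, Apol9a at 5.38 and Igf1 at 5.53 tags, and just outside were Tagap1 at 4.54, Igtp at 4.31 and 9930111J21Rik2 at 2.29 tags. Values are tags per peak, scaled by the authors to 10000000 tags per library.

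The promoter is the stretch of DNA around a transcription start where RNA polymerase and general factors assemble, and at active genes it is kept free of nucleosomes. In mammals many promoters lie in CpG islands, stretches rich in unmethylated CpG that tend to be open in most cell types, while CpG-poor promoters tend to serve tissue-restricted or inducible genes. Distal elements in introns and between genes carry much of the cell-type and signal-dependent binding, for example by AP-1, the dimers of FOS and JUN proteins.

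The sequences of 4 promoters, 2 of Rcan1 and 2 of Slc25a25, are shown first, because in C26 medium the 2 peaks of each gene were called in opposite directions after scaling by median of ratios. They are RefSeq windows (GRCm38.p6) from 250 bases before to 50 after the start site, read 5′ to 3′ on the minus strand, with CpG in capitals. The upstream Rcan1 window (chr16:92466120-92466419) held 33 CpG and the internal one (chr16:92400029-92400328) held 14. The upstream Slc25a25 window (chr2:32451421-32451720) held 25 and the internal one (chr2:32424017-32424316) held 6.
Rcan1 upstream: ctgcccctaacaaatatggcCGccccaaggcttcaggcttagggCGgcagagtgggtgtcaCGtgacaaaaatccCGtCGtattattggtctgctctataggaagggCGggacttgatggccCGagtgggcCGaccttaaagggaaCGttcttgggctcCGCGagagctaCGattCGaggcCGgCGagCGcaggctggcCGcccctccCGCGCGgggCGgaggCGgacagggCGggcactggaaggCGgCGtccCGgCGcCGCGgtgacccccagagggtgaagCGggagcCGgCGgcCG
Rcan1 internal: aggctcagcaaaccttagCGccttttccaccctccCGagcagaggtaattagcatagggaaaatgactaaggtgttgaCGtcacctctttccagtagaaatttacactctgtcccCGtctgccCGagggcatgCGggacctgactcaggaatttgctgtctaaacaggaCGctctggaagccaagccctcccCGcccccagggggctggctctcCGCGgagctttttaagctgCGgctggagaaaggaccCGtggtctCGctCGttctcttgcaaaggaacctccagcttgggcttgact
Slc25a25 upstream: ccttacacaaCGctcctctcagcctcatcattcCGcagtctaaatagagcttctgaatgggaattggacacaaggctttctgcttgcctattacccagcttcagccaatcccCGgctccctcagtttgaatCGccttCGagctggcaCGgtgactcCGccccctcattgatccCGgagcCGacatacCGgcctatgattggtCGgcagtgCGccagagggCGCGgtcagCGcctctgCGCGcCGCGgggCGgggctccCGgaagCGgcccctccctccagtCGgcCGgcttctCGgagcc
Slc25a25 internal: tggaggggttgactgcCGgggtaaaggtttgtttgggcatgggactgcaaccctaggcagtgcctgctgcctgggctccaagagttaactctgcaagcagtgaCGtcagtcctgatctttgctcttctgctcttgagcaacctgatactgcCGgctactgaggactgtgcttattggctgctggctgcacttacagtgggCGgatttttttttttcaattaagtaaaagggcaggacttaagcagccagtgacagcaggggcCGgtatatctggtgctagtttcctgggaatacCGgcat

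Short stretches around matches to the AP-1 motif TGANTCA, in capitals with 15 bases on each side, are shown for 7 peaks that rose, because the motif was more frequent among the peaks that rose than among those that fell. They come from the same windows on the strand of the gene and were chosen after the values had been seen. Most members with a match were not called, and some other motifs were also more frequent among the peaks that rose. Their positions are chr10:86712674-86712710 (Ttc41), chr17:48346377-48346413 (Trem2), chr6:129507204-129507240 (Olr1), chr9:121777548-121777584 (Klhl40), chr14:34588755-34588791 (Ldb3), chr16:92400167-92400203 (Rcan1) and chr11:118212941-118212977 (Cyth1).
Ttc41: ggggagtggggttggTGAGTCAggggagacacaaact
Trem2: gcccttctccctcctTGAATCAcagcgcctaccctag
Olr1: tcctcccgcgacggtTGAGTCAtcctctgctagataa
Klhl40: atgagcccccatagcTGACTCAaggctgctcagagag
Ldb3: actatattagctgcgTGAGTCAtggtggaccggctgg
Rcan1: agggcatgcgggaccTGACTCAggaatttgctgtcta
Cyth1: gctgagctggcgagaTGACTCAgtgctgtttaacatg

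Members were wider and stronger than other peaks. Their median width was 715 bp against 480 bp, their median mean value 53.2 against 26.4 tags, and their median density 73.0 against 57.2 tags per kb. The peak centre lay a median of 29 bp upstream of the start site (-29 bp), and 65.0% of centres were within 100 bp of it. The peak lists of all 6 libraries held 84.6% of members and 54.9% of other peaks. Only 42 members came from control lists alone and 7 from C26 lists alone. Across members the log2 values of libraries of 1 group correlated with r of 0.956 to 0.974, and those of different groups with 0.942 to 0.951. These are correlations across peaks, which are not independent replicates.

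The highest means per peak, a quantity that grows with the width of a peak, were those of Sp1, a GC-box binding factor, at 468 tags, and Gsk3b, a kinase of insulin and WNT signalling, at 388 tags. Sap130, a subunit of a histone deacetylase complex, was at 382 tags, Jun, an AP-1 component, at 380 tags, and Srgap2, a regulator of membrane shape, at 339 tags. The Sp1, Gsk3b, Sap130 and Srgap2 peaks did not pass the test under either scaling described below. Of the 20 myotube markers 6 had a member peak (Chrna1, Chrng, Mylpf, Myod1, Tnnt3 and Ttn), as did 7077 of all 17675 genes with an RNA value. Myog, Ckm, Atf4 and Trim63 had none. Of the markers of other cell types, 0 of 8 for blood cells, 0 of 9 for colon epithelium, 0 of 6 for neurons and 0 of 5 for liver had one. For fibroblasts 4 of 6 had one, and for endothelium 1 of 7, Tek. The values of the myotube marker peaks summed to between 287 and 569 tags in the controls and between 221 and 260 in C26 medium. Those of the fibroblast markers summed to between 160 and 321 and between 128 and 137. These sums use the deposited scaling, under which the median log2 difference over all tested peaks was -0.54. With the second scaling described below, the medians were -0.22 for the myotube and -0.20 for the fibroblast markers, against -0.17 for all members. The part of cell composition in the results was not tested.

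The libraries held 10.1 to 18.2 M tags (M, 10 to the power of 6), and the median member had 103 to 213 recovered read ends per library. The share of tags inside peaks was 27.0%, 13.1% and 17.9% in controls 1 to 3 and 13%, 12.0% and 13.5% in C26 medium 1 to 3. Control 1 thus stood apart, and control 2 lay among the C26 libraries. The median log2 difference between C26 medium and control was -0.54 over all tested peaks with the deposited scaling to library totals, so each change carries this shift. A second scaling, in which each library is divided by the median ratio of its peaks to their geometric mean over libraries, moved this median to -0.02. Shares of tags within a library depend on neither.

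Promoters took a smaller share of the open chromatin signal in C26 medium. Members held 30.9%, 30.7% and 31.2% of peak tags in controls 1 to 3 and 27.9%, 27.6% and 27.0% in C26 medium 1 to 3, so the groups did not overlap. The means were 30.9% ± 0.297 and 27.5% ± 0.449 (SD, n = 3), a difference of -3.43 percentage points. Intron and intergenic peaks held 53.4%, 53.6% and 52.9% in the controls and 57.7%, 58.0% and 58.8% in C26 medium. Peaks at CpG islands outside promoters moved with the promoters, at 4.72%, 4.62% and 4.69% against 4.11%, 4.11% and 4.07%. As a ratio of medians, the typical promoter peak was 2.15, 2.13 and 2.21 times as high as the typical other peak in the controls and 1.81, 1.77 and 1.69 times in C26 medium. Whether promoters closed or distal sites opened cannot be told apart from shares, and no p is given for a score over the members.

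**Figure D1:**
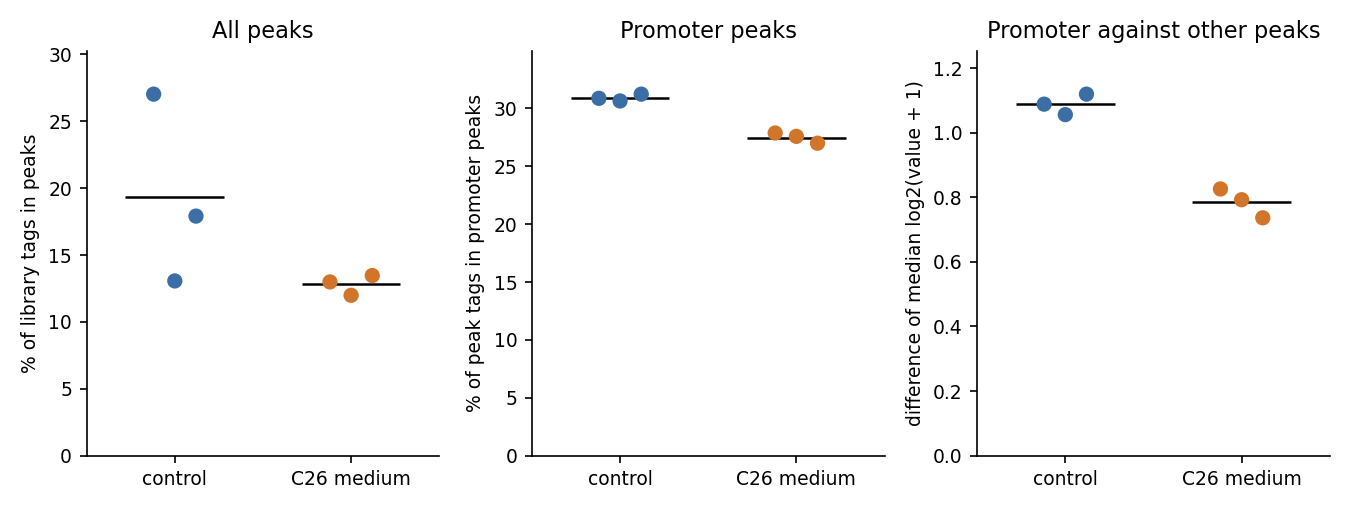
Each point is 1 library, with control in blue, C26 medium in orange and the group mean as a line. The panels give the percent of library tags in any peak, the percent of peak tags in promoter peaks, and the median log2(value + 1) of promoter peaks minus that of other peaks; the groups overlap in the first panel and are separate in the other panels.

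Peak by peak, with the deposited scaling, 98.4% of members lay below 0, 3 were called higher and 73 lower by limma (adjusted p under 0.05). These calls were 0.0410% and 0.996% of members, against a background over all tested peaks of 1.15% higher and 1.9% lower. With this scaling members were thus called lower less often than all tested peaks. The members' median log2 difference was -0.69, against -0.47 for other peaks. These counts rested on single libraries: they were 0 and 0 without C26 medium 1, 0 and 1 without C26 medium 2, C26 medium 3 or control 3, 23 and 651 without control 1, and 6 and 6036 without control 2. After median-of-ratios scaling 154 members were called higher and 1589 lower, against a background of 17.1% and 12.7%, which for members came to 2.10% and 21.7%. The members' median was then -0.17 and that of other peaks 0.04. All 76 members called with the deposited scaling were also called after median-of-ratios scaling, in the same direction. Of the 154, 67 were below 0 with the deposited scaling, where the median of all peaks was itself -0.54, and of the 1589, 0 were above 0. Without control 3 the counts were 114 and 1002, without C26 medium 3 they were 126 and 1050, and leaving out another library gave 126 to 141 and 1213 to 1461. The 3 libraries of each group did not overlap at 330 higher members (4.50%) and 2331 lower ones (31.8%). The background was 21.7% and 19.4%. With the deposited scaling the counts of members were 10 and 3904, the latter 53.3% of members, against 3.24% and 34% of all tested peaks.

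The falls were mostly small. The median of the 1589 was -0.38 on the log2 scale, 331 fell by at least 0.5 and 7 by at least 1. The median of the 154 rises was 0.59, and 22 rose by at least 1. In the remainder, values, log2 differences, standard errors and adjusted p-values (limma, n = 3) are after median-of-ratios scaling unless stated, so a rise or fall is relative to the typical peak.

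**Figure D2:**
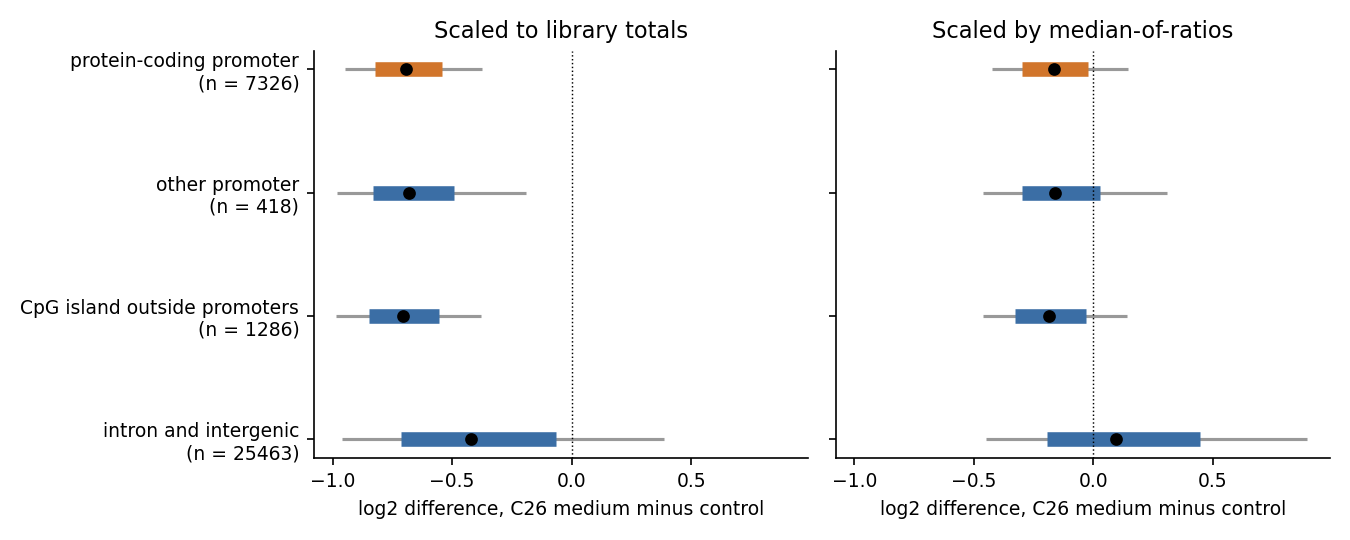
Log2 differences (C26 medium minus control) by class of peak with the deposited scaling (left) and median-of-ratios scaling (right). Dots are medians, thick bars run from the 25th to the 75th percentile and thin lines from the 10th to the 90th; promoter peaks (orange) had medians of -0.69 and -0.17, and intron and intergenic peaks -0.42 and 0.09.

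The peaks that fell most belonged to genes of unlike roles. Zfp933, which encodes a zinc finger protein, stood at 16.8, 19.0 and 14 tags in controls 1 to 3 and at 3.71, 7.96 and 5.54 in C26 medium 1 to 3 (log2 difference -1.43, SE 0.31, adjusted p = 0.000380). The next largest falls were those of Nwd1, a protein of the WD-repeat family, and Sh3tc2, an adaptor known from Schwann cells, with log2 differences of -1.39 and -1.18. Pcgf1, a subunit of a Polycomb complex, stood at 64.6, 62.6 and 58.6 tags in the controls and at 27.8, 29.6 and 27.7 in C26 medium (log2 difference -1.10, SE 0.13). Its libraries were tight within each group and far apart between them. Sdf4, a calcium-binding protein of the Golgi, stood at 67.8, 65.4 and 56.5 against 28.3, 34.9 and 29.3 tags, and its peak also covers the start of B3galt6 on the other strand. Park7, the redox-sensitive protein DJ-1, stood at 34.4, 42.8 and 40.8 against 16.7, 17.3 and 22.8 tags. Cxcl5, a neutrophil-attracting chemokine, stood at 47.0, 50.7 and 48.8 against 30.2, 24.3 and 20.03 tags. For each of these genes every C26 library lay below every control library. Sf3b3, a splicing factor whose peak is shared with Cog4, Dhx58, an RNA helicase of antiviral sensing, Sgta, a co-chaperone, Mrpl22, a mitochondrial ribosomal protein, and Clec2d, a C-type lectin, had log2 differences of -1.08, -0.98, -0.97, -0.94 and -0.93. All 12 were also called lower with the deposited scaling, which is how they were selected. The Clec2d peak was centred at -924 bp.

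Rises were fewer and larger, and 3 of them were called with both scalings. The Ankk1 peak, centred at -537 bp from a start site of this kinase-like gene, stood at 15.3, 20.2 and 17.8 tags in the controls and at 78.0, 69.4 and 69.7 in C26 medium (log2 difference 1.97, SE 0.15, adjusted p = 2.65e-15). Gcnt2, an enzyme that branches sugar chains on glycoproteins, stood at 16.8, 21.4 and 14.4 against 74.2, 68.1 and 67.2 tags (log2 difference 1.95). The peak of Gpr35, a G-protein-coupled receptor, was centred at -884 bp. It stood at 15.3, 17.8 and 14.9 against 61.7, 56.2 and 66.9 tags (log2 difference 1.88). In each of the 3 every C26 library lay above every control library. With the deposited scaling their log2 differences were 1.45, 1.43 and 1.36 (adjusted p = 0.0137, 0.0163 and 0.0271). The Gcnt2 values are those of its peak at -56 bp. After median-of-ratios scaling the Gcnt2 peak at -733 bp was also called higher (log2 difference 0.59). The Gcnt2 peak at -88 bp was not called (0.39).

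A further 9 rises were named after values had been seen, as the largest after median-of-ratios scaling. They were Fdx1, an electron carrier of steroid synthesis (log2 difference 1.76), Rbfox2, a splicing regulator (1.61), Ttc41 (1.57), Nf2, the tumour suppressor merlin (1.56), and Slco4a1, an organic anion transporter (1.49). Tigit, an inhibitory receptor of lymphocytes, had 1.51, Trem2, a receptor of myeloid cells, 1.44, Olr1, a receptor for oxidised low-density lipoprotein, 1.28, and Tacc2, a coiled-coil protein of the centrosome, 1.25. Ttc41 stood at 20.3, 12.3 and 27.6 tags in the controls and 59.4, 58.8 and 57.0 in C26 medium. Tigit stood at 24.0, 24.6 and 27.2 against 75.6, 79.1 and 66.3 tags. In none of these 9 did the groups overlap. None of the 9 was called with the deposited scaling, where their log2 differences ran from 0.74 for Tacc2 to 1.28 for Fdx1. The lowest levels were those of Nf2, at 5.93, 3.17 and 2.55 tags in the controls and 14.4, 10.2 and 14.2 in C26 medium. The Fdx1 peak was centred at -673 bp.

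**Figure D3:**
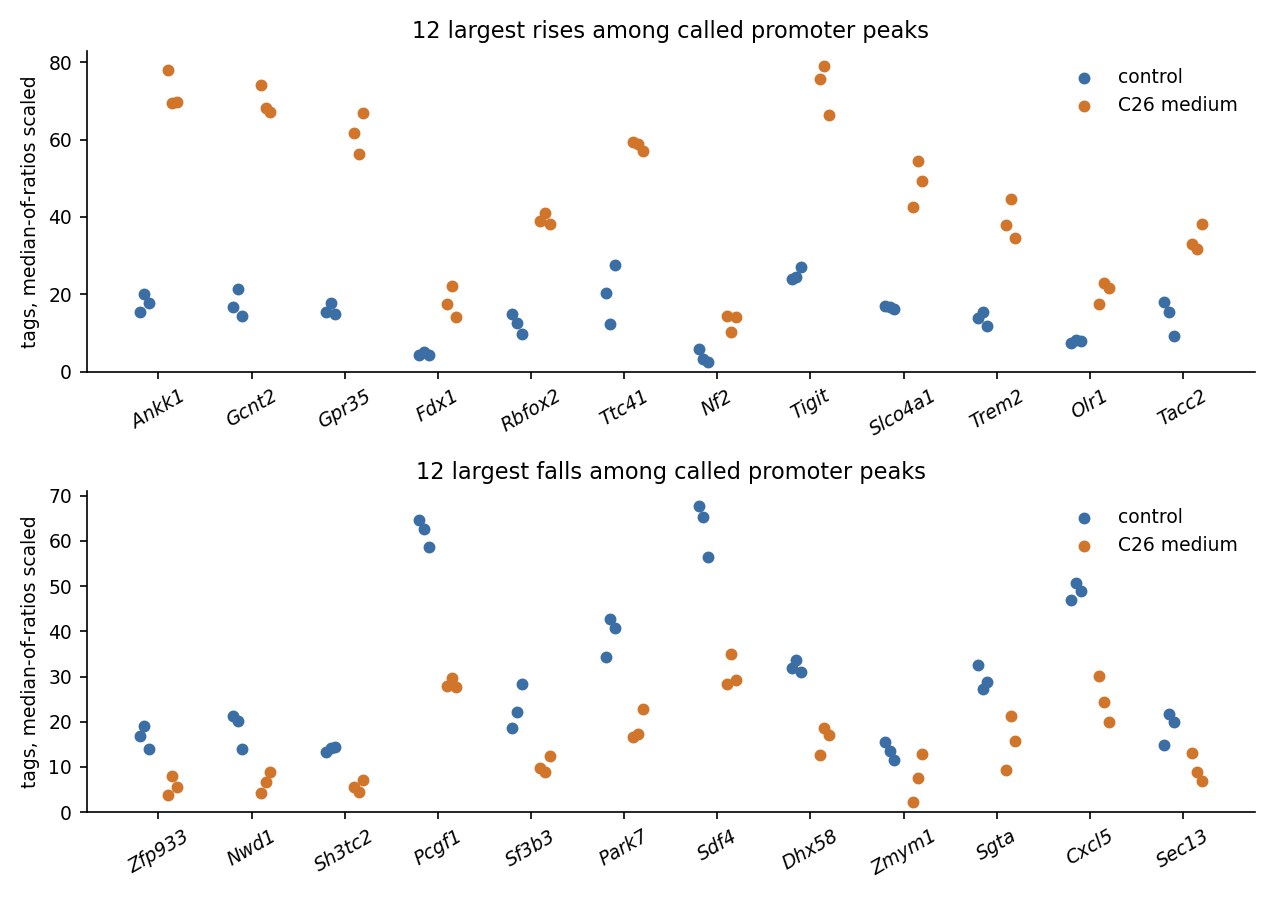
Tags per promoter peak after median-of-ratios scaling in the 3 control (blue) and 3 C26 medium (orange) libraries, for the 12 called members with the largest rises (top) and falls (bottom). The groups are separate for all 12 rises, and among the falls they overlap at Zmym1, where C26 medium 3 stood at 12.9 and control 3 at 11.5.

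Shares of called members differed with the CpG content of the promoter. A RefSeq window lay under 5884 members (80.3%), 5731 of them the window of the peak's own gene. Windows with a CpG observed-to-expected ratio of at least 0.75 and at least 55% GC were CpG-rich (3273 members), those with a ratio under 0.48 CpG-poor (618), and 1993 were intermediate. Of CpG-rich members 0.978% were called higher and 26.6% lower, of the intermediate 1.81% and 19.8%, and of the CpG-poor 7.44% and 8.41%. The median log2 differences were -0.19, -0.15 and -0.03. Within each library the median log2 value of CpG-rich minus CpG-poor members was 0.94, 0.89 and 0.98 in controls 1 to 3 and 0.75, 0.75 and 0.64 in C26 medium 1 to 3, with no overlap between groups. The order held for peaks centred within 200 bp of the start, where 23.3% of CpG-rich and 6.92% of CpG-poor members were called lower. For those centred farther away the shares were 43.9% and 15.2%. Of the 698 peaks that span start sites of coding genes on both strands, 26.6% were called lower and 0.860% higher.

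Level moved with CpG content: the median mean value was 62.0 tags in CpG-rich and 33.6 in CpG-poor members. From the lowest to the highest quartile of members by mean value, 6.55%, 16.7%, 26% and 37.6% were called lower, while the median log2 difference ran only from -0.11 to -0.18, and the part of the power to call was not tested. In the same ranges of mean value 6.39%, 11.5%, 13.4% and 17.6% of intron and intergenic peaks were called lower, with 22.5%, 25.3%, 24.8% and 21.8% called higher. In these ranges of mean value, members were called higher in 3.44%, 2.18%, 1.91% and 0.873% of cases. Peaks at CpG islands outside promoters gave 8.76%, 17.1%, 32.4% and 39.7% lower and 1.22% to 1.65% higher. The other promoter peaks, those of genes that do not code for protein, had a median of -0.16, with 5.98% called higher and 20.8% lower of 418.

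**Figure D4:**
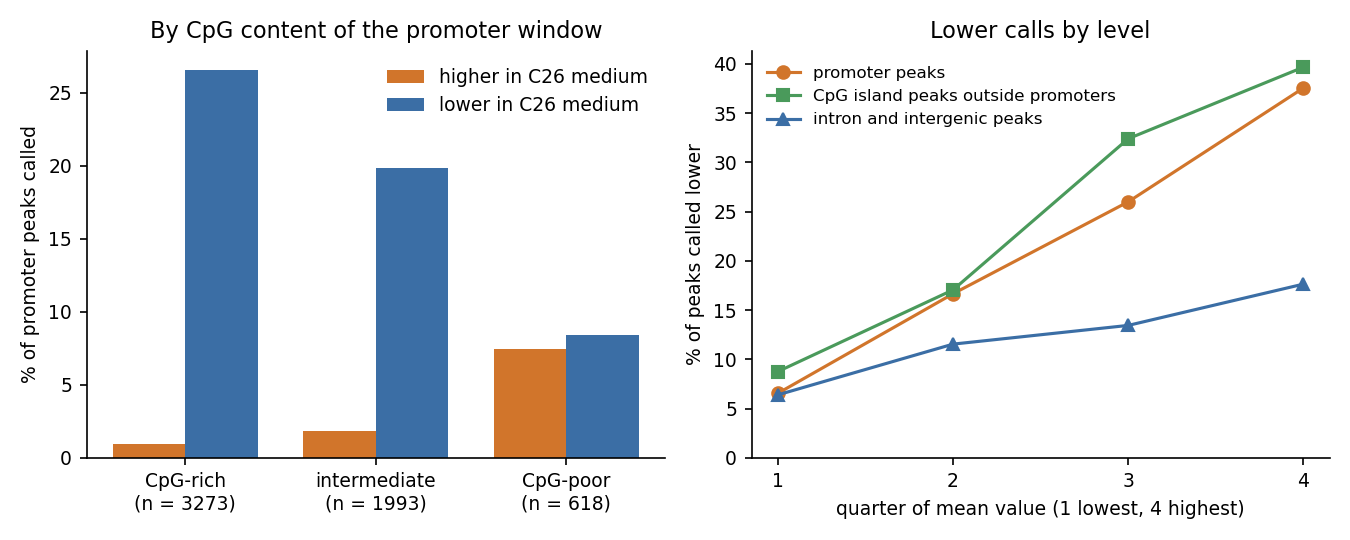
Left, percent of promoter peaks called higher (orange) or lower (blue) in C26 medium after median-of-ratios scaling, by CpG class of the promoter window. Right, percent called lower by quartile of mean value for promoter peaks, CpG island peaks outside promoters and intron and intergenic peaks; in the highest quartile the shares were 37.6%, 39.7% and 17.6%.

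Motif letters differed between the windows of called peaks. TGANTCA, read on both strands, was in 23 of the 114 windows of higher-called members (20.2%) and in 48 of the 1316 of lower-called members (3.65%). It was in 5.05% of all windowed members and in 6.99% of all 21237 coding windows. The difference was also seen within CpG classes: in CpG-rich windows the match was in 5 of 32 higher-called and 22 of 869 lower-called members, in intermediate ones in 5 of 36 and 21 of 395, and in CpG-poor ones in 13 of 46 and 5 of 52. Among the 297 members with a match 23 were called higher, 48 lower and 226 were not called. Their median log2 difference was -0.13, against -0.17 for windowed members without a match. Of the 12 largest rises 4 held a match, in Ttc41, Trem2, Olr1 and Tacc2, and the Tacc2 match lies outside its peak. The GC box GGGCGG, bound by SP and KLF factors, was in 55.3% of higher-called and 78.3% of lower-called windows. It was in 72.1% of all windowed members and in 46.2% of all coding windows. That order did not hold in every CpG class: the box was in 25 of 32 higher-called and 739 of 869 lower-called CpG-rich windows, in 26 of 36 and 270 of 395 intermediate ones, and in 12 of 46 and 21 of 52 CpG-poor ones. The ETS site CCGGAAG was in 3.51% and 20.5%, against 21.1% of all windowed members and 11.6% of all coding windows. By class it was in 1 of 32 and 188 of 869 CpG-rich windows, in 3 of 36 and 80 of 395 intermediate ones, and in 0 of 46 and 2 of 52 CpG-poor ones. The myogenic E-box CAGCTG was in 19.3% of higher-called and 12.7% of lower-called windows, against 15.6% of all coding windows. In CpG-rich windows this E-box was in 1 of 32 higher-called and 97 of 869 lower-called members. In intermediate ones it was in 5 of 36 and 58 of 395, and in CpG-poor ones in 16 of 46 and 12 of 52. The E-box was thus more frequent among higher-called members only in the CpG-poor class. Further motifs leaned either way. The CCAAT box was in 56.1% of higher-called and 38.1% of lower-called windows, and the C/EBP site TTGCNNAA in 16.7% and 7.60%. The RUNX site TGTGGTT was in 7.89% and 2.13%, the CACGTG E-box in 5.26% and 11.8%, and the TATA box TATAAA in 0.877% and 5.93%. These are matches of letters in 300 bases, not sites, and were not tested.

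Of the higher-called members with a printed AP-1 match 4 are described here, chosen after their values were seen. Klhl40, a protein that stabilises thin filaments, stood at 26.7, 33.7 and 35.2 tags in the controls and at 52.9, 45.5 and 55.2 in C26 medium (log2 difference 0.67, SE 0.14, adjusted p = 0.000210). Ldb3, a Z-disc protein, stood at 24.7, 28.1 and 21.7 against 36.2, 33.2 and 43.8 tags (log2 difference 0.58, SE 0.16). Trem2 stood at 13.9, 15.4 and 11.9 against 38.1, 44.7 and 34.5 tags, and Olr1 at 7.42, 8.32 and 8.07 against 17.6, 23 and 21.6 tags. The groups did not overlap in any of the 4, and none was called with the deposited scaling.

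Genes with several promoter peaks gave a comparison that needs no scaling between libraries. There were 214 genes with 2 or more member peaks, up to 5 at Plec. In 6 of them 2 peaks were called lower, and in 3 of them 2 peaks were called higher. At 7 of them 1 peak was called higher and another lower, and the ratio of the peaks was then taken within each library. These genes were picked from the calls, so the ratios are a description. At Rcan1, an inhibitor of calcineurin whose internal promoter is known to respond to calcineurin signalling, the internal peak stood at 43.8, 34.5 and 44.6 tags in the controls and at 96.1, 76.0 and 83.8 in C26 medium. The upstream Rcan1 peak, 65998 bp away, stood at 86.6, 101 and 108 against 72.9, 78.3 and 77.1 tags. The ratio of internal to upstream was 0.506, 0.340 and 0.413 in the controls and 1.32, 0.972 and 1.09 in C26 medium, a change of 2.70-fold. Rcan1 is the pair with 14 and 33 CpG printed above.

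At Slc25a25, a mitochondrial carrier of ATP and phosphate, the internal-to-upstream ratio was 0.767, 0.704 and 0.812 in the controls and 1.32, 1.33 and 1.32 in C26 medium. The internal Slc25a25 peak rose by 0.48 on the log2 scale and the upstream one fell by 0.31, while with the deposited scaling both were below 0 (-0.05 and -0.85). At Cyth1, an exchange factor for ARF proteins, the CpG-poor peak was 0.343, 0.397 and 0.339 times the CpG-rich one in the controls and 0.797, 0.888 and 0.771 times in C26 medium. Prss23, a secreted protease, gave 0.738, 0.504 and 0.421 against 0.897, 0.993 and 0.931. Mt2, a metallothionein that buffers zinc, had a peak centred at -956 bp that stood at 102, 108 and 101 tags in the controls and 166, 163 and 159 in C26 medium. Its peak over the Mt2 start stood at 61.8, 66.5 and 50.5 against 33.4, 43.3 and 42.5 tags. The ratio of the Mt2 peaks changed 2.35-fold, and that of Sphk1, a sphingosine kinase, 3.10-fold. The rising Sphk1 peak was low, at 9.64, 16.2 and 14.01 tags in the controls and 31.1, 20.3 and 23.7 in C26 medium. Zmynd8, a reader of histone marks, changed 3.22-fold, but its falling peak was low, at 14.3, 11.9 and 17.0 against 6.96, 6.19 and 9.56 tags. The control and C26 ratios did not overlap in any of the 7 genes. In 5 of the 6 pairs with windows on both peaks, the peak that rose was in the class poorer in CpG. At Zmynd8 both were CpG-poor. Sphk1 is not among these pairs because its falling peak had no window, and its rising peak was CpG-rich. The 5 include Mt2, whose peaks are both annotated to 1 start. The window under its peak at -956 bp is not the window of that start.

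**Figure D5:**
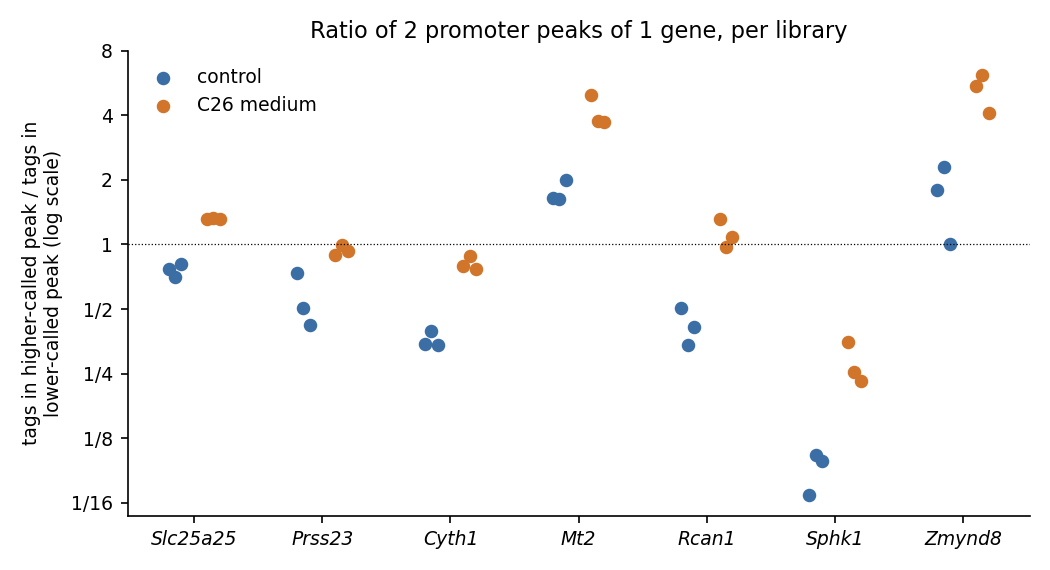
Tags in the higher-called promoter peak divided by tags in the lower-called promoter peak of the same gene, on a log scale, for each control (blue) and C26 medium (orange) library. In all 7 genes every C26 library lies above every control library, with changes of 1.74-fold at Slc25a25 to 3.22-fold at Zmynd8.

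Gene groups were read against the share of all members called lower, 21.7%, and the members' median of -0.17. Every count below is of genes with a member peak, after median-of-ratios scaling, and the lists get no test of their own. The share of members called lower rose with level, from 6.55% in the lowest quartile of mean value to 37.6% in the highest. Median levels were 90.2 tags for the integrated stress response, 96.9 for AP-1 genes, 114.6 for heat shock and 31.9 for mitochondrial ribosomal proteins. That of all members was 53.2 tags. The part of level in the counts was not tested. Among growth and stress genes, 8 of 12 of the integrated stress response were called lower and 0 higher, with a median of -0.43. Chac1, which degrades glutathione and is induced by ATF4, stood at 144, 142 and 171 tags in the controls and at 107, 113 and 95.9 in C26 medium (log2 difference -0.52, SE 0.09, adjusted p = 1.55e-05). Ddit3, the factor CHOP, stood at 230, 259 and 234 against 172, 178 and 183 tags. Of AP-1 and immediate early genes 12 of 20 were called lower and 0 higher (median -0.31). Klf4, a zinc finger transcription factor, stood at 117, 100 and 105 against 71.5, 68.1 and 67.8 tags and was also called with the deposited scaling. Jun fell by 0.27 and Egr1, a zinc finger factor of the early response, fell by 0.38 on the log2 scale.

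Of the REDD1, mTORC1, FOXO and insulin genes 8 of 21 were called lower and 0 higher. REDD1, named in the title of the study, is encoded by Ddit4 and inhibits mTORC1. The Ddit4 peak stood at 139, 156 and 161 tags in the controls and at 134, 128 and 117 in C26 medium (log2 difference -0.27, SE 0.09, adjusted p = 0.0199), and its groups did not overlap. Mlst8, a subunit of mTOR complexes, and Akt1s1, the mTORC1 inhibitor PRAS40, had log2 differences of -0.56 and -0.48. Foxo1, which drives atrophy genes, had -0.25 and was not called. Of the ubiquitin ligases of atrophy 3 of 12 were called lower, Stub1 and Ubr2 among them, with log2 differences of -0.49 and -0.38. Fbxo32, which encodes atrogin-1, stood at 86.6, 82.8 and 79.8 against 97.0, 75.6 and 77.1 tags (log2 difference -0.01, SE 0.10). Its groups overlapped.

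In the methionine cycle and polyamine list 4 of 14 were called lower and 0 higher. Mat2a, which makes S-adenosylmethionine, stood at 120, 110 and 120 tags in the controls and 97.9, 94.6 and 81.1 in C26 medium (log2 difference -0.36, SE 0.10, adjusted p = 0.00353). Ahcyl1, related to the enzyme that clears S-adenosylhomocysteine, had -0.39. In the DNA methylation list 2 of 6 were called lower, Tet2 and Tet3, which oxidise methylcytosine, with -0.38 and -0.32. Dnmt3a, a methyltransferase, stood at 13.9, 16.6 and 22.1 against 18.6, 10.2 and 13.6 tags, with overlapping groups.

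Genes of protein synthesis and respiration were next. Of the cytosolic ribosomal proteins 27 of 62 were called lower and 0 higher (median -0.31), with log2 differences from -0.68 for Rps15a to 0.19. Of mitochondrial ribosomal proteins 12 of 45 were called lower, of the proteasome 9 of 24 and of aminoacyl-tRNA synthetases 7 of 18, with Qars called higher. Psmb7, a catalytic proteasome subunit, had a log2 difference of -0.88. Of the respiratory chain 15 of 51 were called lower and 2 higher, Cox7a1 and Ndufa4. Ndufs7, a complex I subunit, stood at 81.6, 84.0 and 101 tags in the controls and 50.6, 53.1 and 59.8 in C26 medium and was called with both scalings. Cox7a1, a muscle isoform of a cytochrome oxidase subunit, stood at 11.9, 7.52 and 14 against 15.8, 21.7 and 17.6 tags.

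Muscle and inflammatory lists were read in the same way. Of sarcomere and excitation-contraction genes with a member peak 2 of 8 were called lower, Tnnt3 and Mylpf, and 1 higher, Ldb3 (median 0.04). The peak of Tnnt3, fast troponin T, was centred at -985 bp. It stood at 16.6, 21.4 and 21.2 tags in the controls and 7.89, 14.2 and 11.7 in C26 medium. Of myogenic regulators 1 of 8, Mef2d, was called lower (median 0.01). Mef2d, a partner of MYOD1, stood at 66.5, 62.6 and 77.3 against 58.0, 41.6 and 45.0 tags. In the IL-6 and STAT3 list 3 of 15 were called lower, Pim1 and Socs1 among them, and 1 higher. That was Cish, a STAT-induced inhibitor of cytokine receptors, at 75.7, 71.7 and 70.1 tags in the controls and 125.3, 125.6 and 120.5 in C26 medium (log2 difference 0.76, SE 0.10, adjusted p = 9.16e-09). Socs1, of the same family, stood at 212, 231 and 234 against 174, 185 and 184 tags. In the NF-kB and chemokine list 2 of 14 were called lower, Cxcl5 and Nfkb2, and in the interferon list 2 of 17.

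In the remaining lists 1 of 6 NRF2 targets, Hmox1, and 5 of 10 glucocorticoid targets, Nr3c1 and Cdkn1a among them, were called lower. In the glucocorticoid list Mt2 and Pdk4, a kinase that restrains pyruvate oxidation, were called higher. Mt2 is counted here by its peak at -956 bp, and the Mt2 peak over the start was called lower (log2 difference -0.57). Of extracellular matrix and TGF-beta genes 9 of 22 were called lower, with Ccn1 at -0.59 and Fn1, fibronectin, at -0.40, and 1 higher, Loxl1 (0.27). Lower calls were 6 of 16 for glycolysis and hypoxia, 4 of 10 for autophagy and lysosome, 4 of 13 for heat shock proteins, 4 of 15 for the clock, 3 of 16 for the cell cycle and 2 of 13 for sterol synthesis. With the deposited scaling Pdk4, Loxl1, Ndufa4 and Qars were below 0 (-0.16, -0.26, -0.23 and -0.18), so their direction depends on the scaling.

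In mouse muscle, genes with a member promoter peak had more RNA than genes without one. In whole tissue, fewer cells of a type and less RNA per cell cannot be told apart. Of 7077 such genes with an RNA value, 91.3% had at least 1 FPKM in PBS muscle (median 7.98 FPKM), against 54.0% (median 1.45 FPKM) of 10598 genes without one. From the lowest to the highest quartile of openness in control myotubes, in tags per kb, the median was 5.45, 7.58, 8.90 and 10.4 FPKM. Genes with CpG-rich, intermediate and CpG-poor member promoters had medians of 8.72, 7.81 and 5.79 FPKM. Spearman's rho between openness and FPKM was 0.196 across genes, which are not independent replicates.

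LLC against PBS muscle showed 0 called genes by limma among the 6478 tested with a member peak, against a background of 0%. At an unadjusted p under 0.05 in limma there were 393 of these 6478, against a background of 7.63% of the 12981 genes tested. Spearman's rho between the changes in the assays, which differ in cells and in tumour, was -0.026 across 6478 genes. Genes whose promoter was called higher in myotubes had a median log2 RNA difference of 0.02 (58 of 108 above 0), and those called lower also 0.02 (806 of 1478 above 0). Ddit4 RNA stood at 5.27, 7.68 and 9.62 FPKM in PBS and 12.1, 17.9 and 21.2 in LLC muscle, while its promoter peak fell by 0.27 on the log2 scale in C26 medium. Chac1 RNA stood at 37.7, 21.1 and 36.0 against 57.3, 90.9 and 101 FPKM. For Gcnt2, with its peak at -56 bp higher in C26 medium, RNA stood at 3.00, 5.11 and 4.95 against 8.12, 8.37 and 6.23 FPKM. In these 3 genes the LLC and PBS groups did not overlap, and none passed over all genes tested (adjusted p = 0.410, 0.324 and 0.489).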

How the data were processed

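ATAC-seq of 6 C2C12 libraries and RNA-seq of 6 mouse muscle libraries were used. The ATAC values are signal, deposited by the authors as tags per peak of a merged peak list scaled to 10000000 tags per library, per the file headers, and annotated with HOMER in mm10. Every value gave whole half-tag steps (100% within a tolerance of 0.1), from which read ends were recovered. RNA was deposited as FPKM, computed by the authors with HOMER from exons of both strands, per the file headers. The submitters' processing notes name HISAT2, HOMER, DESeq2, Bowtie2 and MACS2 with builds GRCm38 and mm10; how duplicates and the Tn5 offset were treated is not given in the sources used here, nor are versions. All 12 sample columns were used.

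All peaks with a mean of at least 5, the mitochondrial genome left out, were fitted with limma 3.58.1 (lmFit, eBayes with trend, two-sided) in R 4.3.3 on log2(value + 1), which understates changes of low peaks, with Benjamini-Hochberg adjustment over 37356 peaks and a threshold of 0.05. Genes averaging 1 FPKM or more were fitted alike on log2(FPKM + 1). The pipeline was tested on simulated data. The same fit followed median-of-ratios scaling, and recovered read ends were tested with edgeR 4.0.16. Other alternatives were pseudocounts, filters, quantile normalization, thresholds, replicate numbers as a block and leaving out libraries.

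Named peaks were among those past the threshold the 12 that rose most and the 12 that fell most, the 5 highest, up to 2 per gene list with the smallest p, and the promoters of Ddit4, Fbxo32, Trim63, Atf4, Dnmt3a, Mat2a, Foxo1, Fkbp5, Myog and Ckm. In this set a gene with several peaks is named by its highest. Rbfox2, added later, is named by its peak at -47 bp, and its higher peak at -739 bp had a log2 difference of 1.00. The largest changes after median-of-ratios scaling, the pairs of promoter peaks and the peaks with a printed motif were added after values had been seen. Members and lists were chosen with earlier results of these data known. A split by the CpG island annotation was planned, but 0 members carry that annotation, so CpG content of RefSeq promoter windows (GRCm38.p6) was used.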

Additional observations from a re-analysis of the deposited data

How the results depend on the processing

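The counts of called members depended on the scaling, and the within-library contrasts did not. Against 3 higher and 73 lower, median-of-ratios scaling gave 154 and 1589, quantile normalization 171 and 1504, and edgeR with TMM 165 and 1643. EdgeR with library totals gave 3 and 177. No filter gave 1 and 8, no trend 5 and 203, an adjusted p under 0.1 gave 6 and 676, and a mean of at least 20 gave 36 lower. Without 1 library in turn the counts ran from 0 to 23 higher and from 0 to 6036 lower, and with median-of-ratios scaling, chosen after seeing the data, they were 136, 126 and 126 higher and 1461, 1213 and 1050 lower without C26 medium 1, 2 and 3, and 141, 137 and 114 higher and 1355, 1297 and 1002 lower without control 1, 2 and 3. The cause of these differences was not tested. A replicate block gave 3 and 69, and with median-of-ratios scaling, added after seeing the data, 152 and 1488. The deviations of same-numbered ATAC libraries correlated across peaks with r of -0.011, 0.008 and -0.017, and those of RNA libraries across genes with -0.091, 0.60 and -0.60. Such correlations cannot show whether same-numbered libraries shared a culture or day, and no label says so. The block left the RNA count at 0. From control to C26 medium the median log2 value of promoter peaks minus that of other peaks changed by -0.30. This change was -0.26 at a mean of at least 20 and -0.28 to -0.32 without 1 library. The promoter share changed by -3.19 to -3.63 percentage points without 1 library, and CpG-rich minus CpG-poor by -0.19 to -0.24. Relative to the median of all peaks, Fbxo32, near 0 with all libraries, was below it without control 2 (-0.003, where the peak itself was called, adjusted p = 0.0122 in limma), without control 3 (-0.024) and without C26 medium 1 (-0.12), within a range of -0.12 to 0.065 without 1 library. Of the 21 named peaks called with the deposited scaling, 21 kept their call with median-of-ratios scaling, 12 of the 16 tested did at a mean of at least 20, 6 did with no filter, 0, 1 and 1 did without C26 medium 1, 2 and 3, and 1 did without control 3. Depth limits the lowest peaks, such as that of Nf2, and p-values from 3 libraries a group cover only their spread.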
